A study of Mus musculus with 12 samples.

Results

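T cells with public beta receptors are cells whose T cell receptor (TCR) beta chain was found in more than 1 of the sequenced tumours' libraries. Members were chosen from barcodes with exactly 1 beta chain (TRB) and 1 or 2 alpha chains (TRA), as the cells whose TRB V segment, amino-acid CDR3 loop and J segment occurred together in at least 2 libraries. LNP-P20-mAb 1 and 2 shared 546 receptors per 1000000 receptor pairs, against at most 9.94 between the library units compared below. They were counted as 1 library, which left 5 library units. By this rule 1943 of 19115 cells (10.2%) were members. They carried 137 of 10262 distinct TRB receptors (1.34%), and the other 10125 receptors were found in 1 unit. Recurrence between units chose the members, so the counts of shared receptors and the properties of the beta loop are given as a description without a test.

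The series held 6 TCR libraries, 3 from tumours given LNP-P20-mAb and 3 from tumours given LNP-Ctrl, and 6 gene expression samples that were not analysed here. The tumours grew under the skin of C57BL/6 mice (C57BL/6J in the genotype label) of 6 to 8 weeks from a derivative of MC38, a mouse colon carcinoma line. The labels write that derivative both as MC38-p53KO/R175H and as MC38-p53KO/R175W, that is with p53 knocked out and a p53 substitution in conflicting notations, and all groups share it. Each tumour received 1 intratumoral injection of 40 µg of LNP-P20-mAb or of LNP-Ctrl on day 10, in a series about an antibody against frequent p53 mutations. CD45-positive cells, which are leukocytes, were sorted, and about 10000 per sample entered droplet-based single-cell libraries. No label ties a library to an animal of its own, so the p-values below speak only of the variation among these libraries, part of which may be technical.

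The TCR beta chain is assembled in the thymus by joining a V, a D and a J segment of the TRB locus, with bases trimmed and added at random at both joints. The loop made across these joints, CDR3, touches the antigen peptide on its MHC molecule. The alpha chain is assembled separately, from V and J segments of the TRA locus. Because the joints are random, most beta loops are private to 1 animal, and those seen in several animals are called public. Several base sequences can encode the same amino-acid loop.

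The libraries held 5050 to 9982 chains on 2446 to 4869 barcodes, of which 2016 to 3923 per library were used, and no chain came from a gamma-delta or immunoglobulin locus (0 of 48792). An alpha chain of invariant natural killer T cells (TRAV11 or TRAV11D joined to TRAJ18) was carried by 1 of 1943 public cells and 55 of 17172 single-library cells. The alpha chain of mucosal-associated invariant T cells (TRAV1 joined to TRAJ33) was carried by 0 public cells, which allows a share of up to 0.154% (3 of 1943 cells, counting error only), and by 17 single-library cells. Of 18924 barcode sequences, 189 were used in 2 or more libraries, and no barcode sequence carried the same public receptor in 2 libraries (0 cases).

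The sequences below show how public loops recurred between library units. Each is the CDR3 of the TRB chain as deposited, 5′ to 3′ on the coding strand, and capitals mark the middle bases. From the 5′ side, bases were matched to the common end of the V segment in these libraries. From the 3′ side, they were matched to the common start of the J segment. Matching stopped at the first mismatch on each side, and the bases left between are the middle bases. A middle base past a mismatch can still equal the common V or J base. The TRB locus lies on mouse chromosome 6 and the TRA locus on chromosome 14 in the RefSeq table (GRCm38.p6).

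The first set is TRBV20 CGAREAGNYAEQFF, the public receptor with the most cells, written with different bases in the 2 units that held it.
LNP-P20-mAb 1 and 2: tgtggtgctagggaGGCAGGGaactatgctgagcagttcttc
LNP-Ctrl 1: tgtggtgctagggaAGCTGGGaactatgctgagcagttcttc

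The second set is TRBV31 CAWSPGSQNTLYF, which had a different base sequence in each of the 3 LNP-Ctrl libraries.
LNP-Ctrl 1: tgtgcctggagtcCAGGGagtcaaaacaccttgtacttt
LNP-Ctrl 2: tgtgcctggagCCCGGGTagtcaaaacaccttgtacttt
LNP-Ctrl 3: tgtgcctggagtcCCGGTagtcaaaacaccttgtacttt

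The third set is TRBV20 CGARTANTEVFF, for which 4 base sequences were found among 6 cells, more than 1 of them in each unit.
LNP-P20-mAb 3, in 3 cells: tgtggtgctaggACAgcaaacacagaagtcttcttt
LNP-P20-mAb 3, in 1 cell: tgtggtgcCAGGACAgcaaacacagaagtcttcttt
LNP-Ctrl 3, in 1 cell: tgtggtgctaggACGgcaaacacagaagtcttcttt
LNP-Ctrl 3, in 1 further cell: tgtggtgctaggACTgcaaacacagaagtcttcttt

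The last set holds the 3 receptors whose beta and alpha bases were both identical between units. TRBV5 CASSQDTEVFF has no middle base, so that the common V end and the common J start account for all of it.
TRBV19 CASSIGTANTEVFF: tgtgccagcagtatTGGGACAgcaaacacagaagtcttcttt
TRBV12-1 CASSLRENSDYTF: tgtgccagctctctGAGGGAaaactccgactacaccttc
TRBV5 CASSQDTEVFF: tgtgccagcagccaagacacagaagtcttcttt

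Most public receptors were rare, and a few held most of the cells. Of the 137 receptors, 125 were found in 2 units, 10 in 3, 2 in 4 and 0 in all 5. In 78 of them each unit contributed 1 cell, and the median was 2 cells per receptor. At the other end, 14 receptors had 20 or more cells and together held 1513 of the 1943 cells (77.9%). At the border of the rule, 103 receptors were found in LNP-P20-mAb 1 and 2 alone, and their 3722 cells are not members because those libraries count as 1.

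Public cells made up 16.1% of the cells of LNP-P20-mAb 1 (95% exact Clopper-Pearson interval 14.9% to 17.4%), 15.1% of LNP-P20-mAb 2 (13.6% to 16.8%) and 7.39% of LNP-P20-mAb 3 (6.45% to 8.41%). They made up 17.6% of LNP-Ctrl 1 (16.3% to 18.9%), 5.99% of LNP-Ctrl 2 (5.27% to 6.78%) and 2.14% of LNP-Ctrl 3 (1.70% to 2.66%). These intervals cover counting error only. The share of LNP-Ctrl 1 came mostly from the 468 cells of TRBV20 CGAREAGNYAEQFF, and was 4.15% with that receptor left out. As shares of distinct receptors, public receptors made up 4.90%, 7.65% and 3.58% of LNP-P20-mAb 1, 2 and 3, and 3.24%, 2.38% and 1.98% of LNP-Ctrl 1, 2 and 3.

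**Figure D1:**
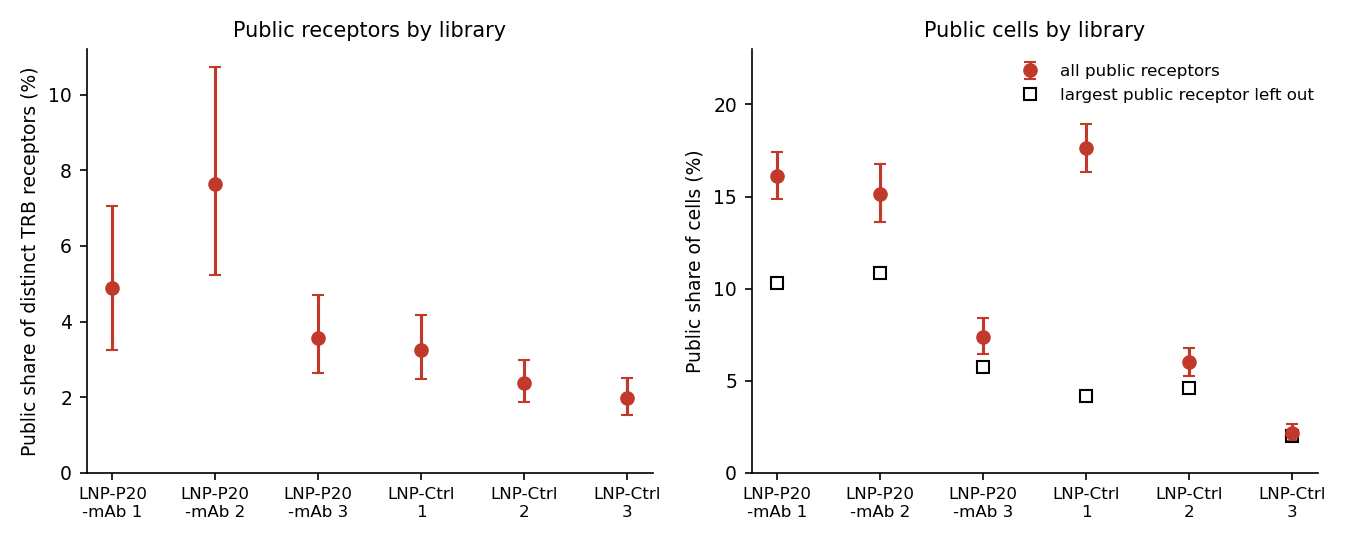
Public share of distinct TRB receptors (left) and of cells (right), in percent, in each of the 6 libraries, with 95% exact binomial intervals. Open squares leave out the largest public receptor of each library, which lowers LNP-Ctrl 1 to 4.15% of cells.

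By unit, the public share of receptors was 5.09% in LNP-P20-mAb 1 and 2 and 3.58% in LNP-P20-mAb 3, against 3.24%, 2.38% and 1.98% in the LNP-Ctrl libraries. The mean was 4.33% ± 1.07 in LNP-P20-mAb (SD, n = 2 units), against 2.53% ± 0.645 in LNP-Ctrl (SD, n = 3 units). The units held 825 and 1342 distinct receptors in LNP-P20-mAb, against 1790, 3066 and 3390 in LNP-Ctrl, so the public share ran in the inverse order of the receptors in the unit. Treatment and the number of receptors cannot be told apart here, and since recurrence chose the members these shares are a description. The public share of cells overlapped between the groups, at 11.6% ± 5.91 of LNP-P20-mAb cells and 8.58% ± 8.05 of LNP-Ctrl cells (SD, n = 2 and 3 units).

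More public receptors were found under both treatments than under either alone. Of the 137, 71 were found in both, 8 only in LNP-P20-mAb units and 58 only in LNP-Ctrl libraries, where the design offers 1 pair of units within LNP-P20-mAb, 3 within LNP-Ctrl and 6 between them. Set against the number of receptor pairs that could have matched, LNP-P20-mAb 1 and 2 shared 9.94 receptors per 1000000 pairs with LNP-P20-mAb 3, the highest rate of the 10 pairs of units. The remaining 3 pairs within a treatment, all LNP-Ctrl, shared 2.89 to 3.79 per 1000000, and the 6 pairs between treatments 3.08 to 7.12. The highest rate rested on 11 shared receptors.

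Receptors found in 3 or more units numbered 12. The most abundant was TRBV19 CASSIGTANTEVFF, with 212, 88 and 2 cells in LNP-P20-mAb 1, 2 and 3 and with 1, 0 and 2 cells in LNP-Ctrl 1, 2 and 3. Its large clone in LNP-P20-mAb 1 and 2 carried TRAV6-4 with TRAJ9, and 1 of the cells in LNP-Ctrl 3 had the same alpha and beta bases, with 17 beta and 3 alpha unique molecular identifiers (UMIs, counts of captured transcripts). The other LNP-Ctrl 3 cell and the LNP-P20-mAb 3 cells also used a TRAV6 segment with TRAJ9 but other alpha loops, whereas the LNP-Ctrl 1 cell used TRAV1 with TRAJ32.

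TRBV13-3 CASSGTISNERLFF had 4, 3 and 11 cells in LNP-P20-mAb 1, 2 and 3, against 0, 0 and 1 in LNP-Ctrl 1, 2 and 3. It had a single TRB base sequence in all of them. The LNP-P20-mAb cells carried the same TRAV12N-2 and TRAJ22 alpha loop of 15 residues, written with different bases in LNP-P20-mAb 1 and 2 than in LNP-P20-mAb 3, while the LNP-Ctrl 3 cell had another alpha loop. TRBV5 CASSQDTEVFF had 2 cells in LNP-P20-mAb 3, against 1 each in LNP-Ctrl 2 and 3. Both LNP-P20-mAb 3 cells and the LNP-Ctrl 3 cell paired it with TRAV4-4-DV10 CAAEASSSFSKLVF, and 1 of those LNP-P20-mAb 3 cells had the same alpha bases as the LNP-Ctrl 3 cell.

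Another 3 of the 12 were found in every LNP-Ctrl library and in no LNP-P20-mAb unit. TRBV31 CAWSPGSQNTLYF had 6, 1 and 2 cells in LNP-Ctrl 1, 2 and 3, and in each library it was paired with TRAV14N-2 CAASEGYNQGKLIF and TRAJ23. TRBV3 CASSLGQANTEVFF had 1, 6 and 1 cells, and in each library it was paired with TRAV9N-4 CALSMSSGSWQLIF and TRAJ22. TRBV16 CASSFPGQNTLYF had 1 cell in each, with 3 different segments of the TRAV9 family, all joined to TRAJ27.

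The remaining 6 have loops of 15 or 16 residues. TRBV10 with TRBJ2-3 accounts for 3 of them, whose loops begin CASSST, CASSGT and CASSYT and are otherwise the same. The CASSST loop had 1, 1 and 0 cells in LNP-P20-mAb 1, 2 and 3 and 8, 4 and 1 cells in LNP-Ctrl 1, 2 and 3. The CASSGT loop had 10, 8 and 7 cells in the LNP-P20-mAb libraries, against 0, 4 and 0 in the LNP-Ctrl libraries. The CASSYT loop had 0, 0 and 2 cells in the LNP-P20-mAb libraries, against 0, 1 and 1 in the LNP-Ctrl libraries. These 3 loops were written with 4, 4 and 3 base sequences. TRBV3 with TRBJ1-3 had 20 cells, 13 of them in LNP-Ctrl 1. The last 2, TRBV12-1 with TRBJ2-1 and a chain under the joint V name TRBV12-2+TRBV13-2, as deposited, with TRBJ2-3, had 3 and 4 cells.

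Among receptors found in 2 units, the 10 with the most cells were mostly large in 1 unit and rare in the other. TRBV20 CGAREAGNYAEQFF had 2 and 1 cells in LNP-P20-mAb 1 and 2, against 468 cells in LNP-Ctrl 1, all with TRAV7D-2 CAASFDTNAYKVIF and TRAJ30. TRBV12-1 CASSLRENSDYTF had 191 and 97 cells in LNP-P20-mAb 1 and 2, against 1 cell in LNP-Ctrl 2, whose TRAV15-1-DV6-1 alpha chain had the same bases and 3 UMIs beside 11 beta UMIs. The TRBV19 loop that differs from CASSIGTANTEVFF only in beginning CASSMG had 2 cells in LNP-P20-mAb 3, against 57 in LNP-Ctrl 2. TRBV19 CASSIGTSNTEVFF had 2 and 1 cells in LNP-P20-mAb 1 and 2, against 27 in LNP-Ctrl 2.

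A 15-residue TRBV13-3 and TRBJ2-4 loop had 50 cells in LNP-P20-mAb 3, against 1 in LNP-Ctrl 3. TRBV15 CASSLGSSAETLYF was found in LNP-P20-mAb units only, with 1, 1 and 49 cells in LNP-P20-mAb 1, 2 and 3. So was TRBV16 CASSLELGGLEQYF, with 40, 42 and 2 cells.

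The exceptions had several cells in both units. A 13-residue TRBV29 and TRBJ1-2 loop had 29 and 12 cells in LNP-P20-mAb 1 and 2, against 15 in LNP-Ctrl 2, the highest second-unit count of any public receptor. TRBV16 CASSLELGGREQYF had 6, 11 and 5 cells in LNP-P20-mAb 1, 2 and 3, and a 15-residue TRBV5 and TRBJ2-3 loop had 2, 17 and 7. Over all 137 receptors, 22 had 2 or more cells in a second unit. Of the 9 with 20 or more cells in 1 unit, 8 had 1 to 3 cells in the next.

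**Figure D2:**
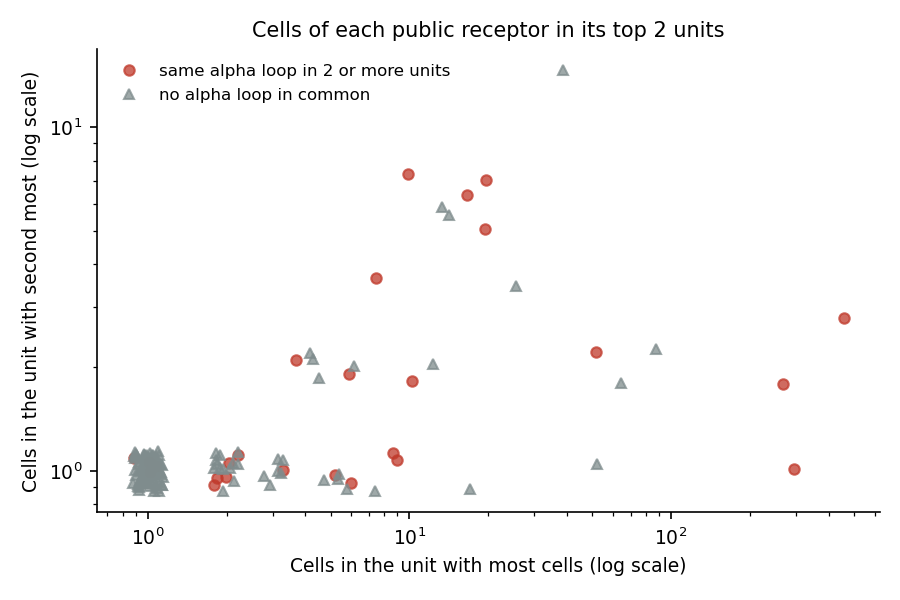
Cells of each of the 137 public receptors in the unit with the most of them (horizontal) and in the unit with the second most (vertical), both on log scales, with points shifted slightly at random to separate ties. Circles mark receptors with the same alpha loop in 2 or more units. Most receptors lie at 1 cell in both, and 8 of the 9 with 20 or more cells in 1 unit have 1 to 3 in the next.

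Public receptors were more often carried by several cells than receptors of 1 unit. The share carried by 2 or more cells was 42.9% and 43.8% for public receptors in LNP-P20-mAb 1 and 2 and in LNP-P20-mAb 3, and 24.1%, 30.1% and 13.4% in LNP-Ctrl 1, 2 and 3. For single-library receptors it was 16.9% and 12.1% in the LNP-P20-mAb units, and 8.37%, 6.18% and 3.88% in LNP-Ctrl. The share was thus higher for public receptors in 5 of 5 units, by 21.4 ± 8.72 percentage points (SD, n = 5), with means of 30.9% for public and 9.49% for single-library receptors. The two-sided exact sign-flip permutation p was 0.0625, the smallest that 32 flips allow, and 0.2 after Benjamini-Hochberg adjustment over the 8 single-value tests made. A public receptor enters in each unit that holds it, so units are not independent in this comparison. Cells were counted over all base sequences of a receptor, so 2 or more cells need not be 1 clone. Of public receptor occurrences with 2 or more cells in a unit, 16.7% had several base sequences, against 4.55% of single-library ones. With receptors matched by bases the difference was 19.9 percentage points (exact sign-flip permutation p = 0.125). That p is above 0.0625, so the share was not higher in all 5 units under this matching.

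Public receptors averaged 7.74 ± 7.51 cells and single-library receptors 2.33 ± 1.91 (SD, n = 5 units), higher in 5 of 5 units (exact permutation p = 0.0625, adjusted 0.2). The median was 1 cell for both in every unit, so the means rest on the receptors with the most cells. The mean difference of 5.41 cells was 2.73 without the 3 receptors of identical bases, 2.80 with receptors matched by the amino-acid loop alone, and 8.73 without LNP-Ctrl 3. Read the other way, 2.13% of receptors with 1 cell in a unit were public. The public share was 8.09% at 2 to 4 cells, 15.5% at 5 to 19 cells and 12.9% at 20 or more cells, pooled over units. Between treatments, 43.3% ± 0.631 of public receptors had 2 or more cells in LNP-P20-mAb units, against 22.6% ± 8.46 in LNP-Ctrl libraries (SD, n = 2 and 3 units). The unit of LNP-P20-mAb 1 and 2 adds the cells of both libraries, so a receptor with 1 cell in each counts as carried by 2. Taken separately, LNP-P20-mAb 1 had 55.6% and LNP-P20-mAb 2 had 33.3%, so the SD of 0.631 does not measure the spread of single libraries. The groups did not overlap, and the exact permutation p of 0.1, adjusted 0.2, was the smallest that the 10 assignments allow. The difference of 20.7 percentage points was 13.5 without LNP-Ctrl 3 and 11.5 with receptors matched by the amino-acid loop alone. Single-library receptors also had 2 or more cells more often in both LNP-P20-mAb units than in any LNP-Ctrl library.

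**Figure D3:**
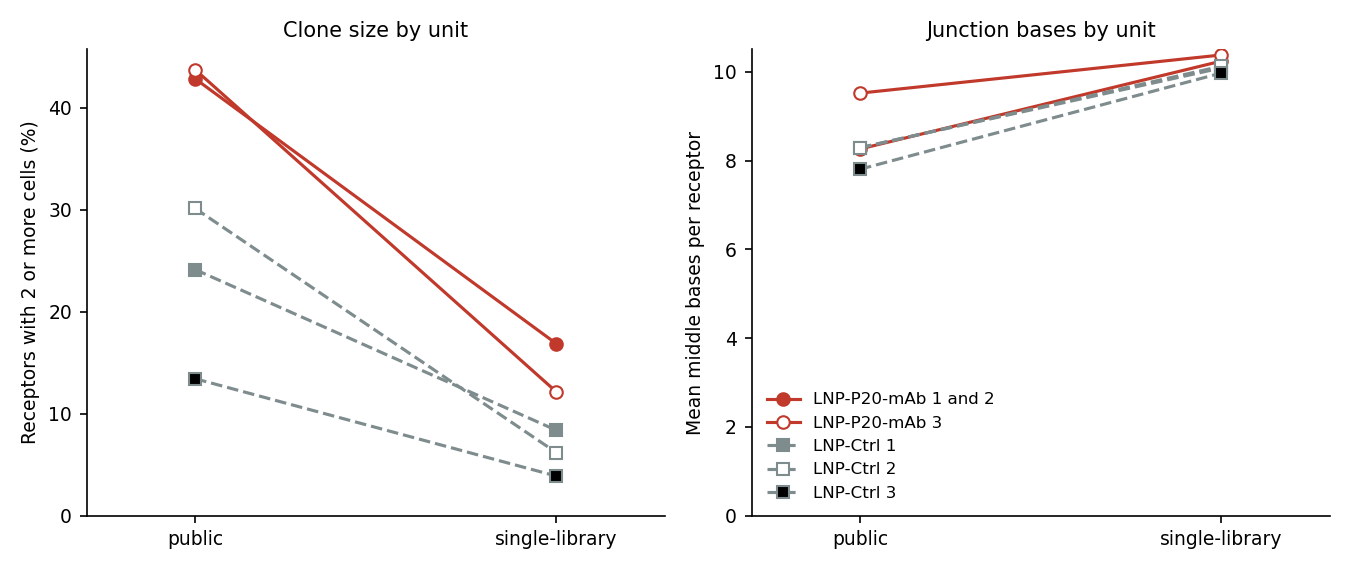
Share of receptors with 2 or more cells, in percent (left), and mean middle bases per receptor (right), for public and single-library receptors, 1 line per library unit. All 5 lines fall on the left, where the means are 30.9% for public and 9.49% for single-library receptors, and all 5 climb on the right.

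The beta loops of public receptors held fewer middle bases, as defined above. The common V ends differ in length, with 12 bases for TRBV10 and 17 for TRBV12-2+TRBV13-2, and V use differed between the classes. The part of V use in the difference was not tested. Over distinct receptors, public junctions held 8.32 ± 3.54 middle bases (SD, n = 137) and single-library junctions 10.1 ± 3.86 (SD, n = 10125). At most 5 middle bases were present in 21.9% of public and 11.5% of single-library receptors, and 12 or more in 18.2% and 35.6%. The unit means were 8.26 and 9.52 for public receptors in LNP-P20-mAb 1 and 2 and in LNP-P20-mAb 3, and 8.29, 8.29 and 7.81 in LNP-Ctrl 1, 2 and 3, against 9.97 to 10.4 for single-library receptors. Public values were lower in 5 of 5 units. They were 1.73 ± 0.507 bases fewer on average (SD, n = 5), that is 8.43 against 10.2.

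CDR3 length differed mainly at the long end. Loops of 16 or more residues made up 2.92% of public receptors (4 of 137) and 12.9% of single-library receptors, and loops of 13 or fewer 39.4% and 33.2%. Mean length was 13.7 ± 1.26 residues in public and 14.0 ± 1.43 in single-library receptors (SD). It was lower for public receptors in 5 of 5 units, with a mean difference of -0.30 ± 0.125 residues (SD, n = 5), from -0.11 in LNP-P20-mAb 3 to -0.42 in LNP-Ctrl 2. It was -0.19 when LNP-Ctrl 2 or LNP-Ctrl 3 was left out. A D segment was called by the authors' software for 21.9% of public and 23.6% of single-library receptors, and the difference by unit had no common sign, from -8.45 to 9.84 percentage points.

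**Figure D4:**
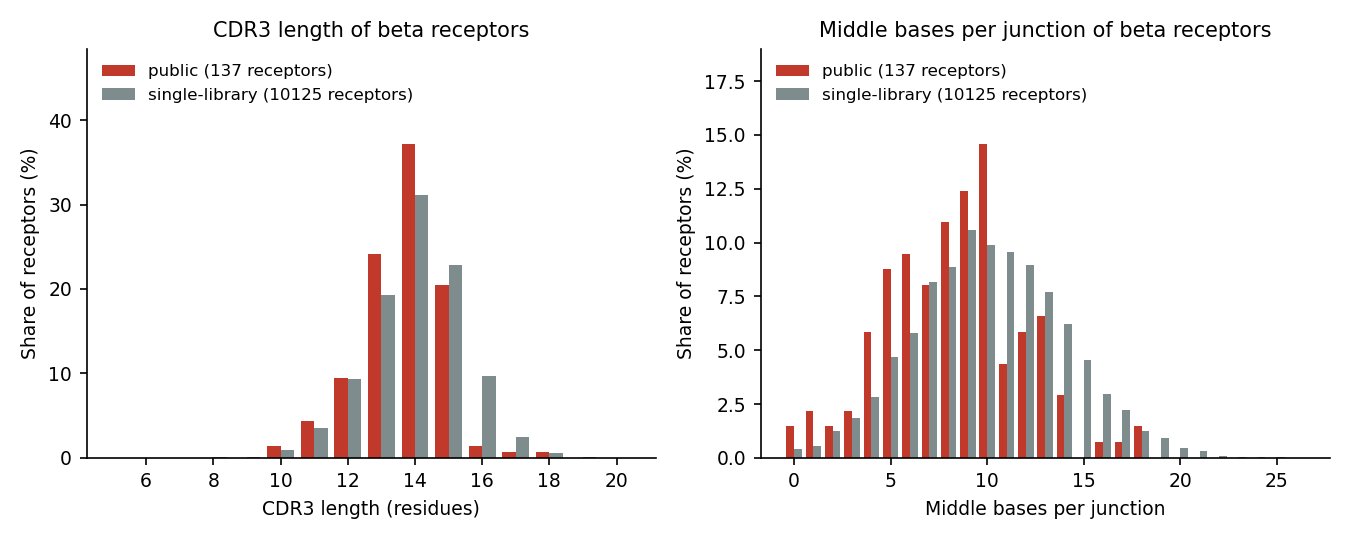
Share of public (red, left bar of each pair) and single-library (grey) TRB receptors, in percent, by CDR3 length in residues (left panel) and by the number of middle bases (right panel). Of the public receptors 2.92% have 16 or more residues, against 12.9% of single-library receptors.

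J segments were used unevenly. TRBJ2-7 was joined in 24.8% of public and 19.8% of single-library receptors, and TRBJ2-5 in 16.8% and 12.3%. TRBJ2-2 was joined in 2.19% and 5.55%, and TRBJ1-6 in 0 of 137 public receptors against 3.01% of single-library receptors. Among V names, the joint name TRBV12-2+TRBV13-2 was most common in public receptors, at 14.6% against 9.75%, and TRBV10 was used by 8.03% against 4.31%. A loop that differed in 1 residue, with the same V, J and length, was found somewhere in the series for 60.6% of public receptors and 21.8% of single-library receptors.

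Most public loops were written with different bases in different library units. A single TRB base sequence was found for 29 receptors, 2 for 96, 3 for 6 and 4 for 6, so that 108 of 137 (78.8%) had at least 2. A base sequence recurred between units for 35 receptors (25.5%), and the other 102 had none in common. Receptors with a recurring base sequence averaged 7.20 middle bases, and those without 8.71. Alternative sequences of a receptor differed by 1 to 4 bases, with a median of 2 over 150 pairs. They encode the same residues by the choice of members, so most differences had to fall at the third codon position. Of the 263 differing bases, 240 (91.3%) did.

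Different base sequences also met within a unit. Of 84 occurrences of a public receptor with 2 or more cells in a unit, 14 (16.7%) had at least 2 base sequences, against 34 of 748 (4.55%) for single-library receptors. TRBV20 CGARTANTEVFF, shown above, is an example in both of its units. The receptors of 2 units with the most base sequences were this one, TRBV3 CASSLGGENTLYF and TRBV3 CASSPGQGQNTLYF with 4 each, then TRBV19 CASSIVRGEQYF and a 15-residue TRBV10 and TRBJ2-3 loop with 3 each. They had 6, 6, 6, 3 and 3 cells.

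The alpha chain, which the choice of members did not use, recurred with the beta chain in 26 public receptors. Of the 137, these 26 were paired with the same alpha V segment, loop and J segment in 2 or more units, and they held 1315 cells. For 19 of the 26 no TRB base sequence was shared between units. For 12 of the 26 the alpha bases differed between units. Both chains had identical bases between units in 3 receptors, those printed in the last set above, and in each of these 1 of the cells with matching bases was a single cell in an LNP-Ctrl library. No barcode linked these cells, and the part of transfer of material between libraries was not tested.

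The alpha chains of TRBV31 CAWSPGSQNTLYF differed in bases as its beta chains did. Its TRAV14N-2 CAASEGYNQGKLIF chain had 1 base sequence in each LNP-Ctrl library, all different, printed to show the match in amino acids without a match in bases.
LNP-Ctrl 1 alpha: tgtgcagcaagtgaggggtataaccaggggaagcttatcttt
LNP-Ctrl 2 alpha: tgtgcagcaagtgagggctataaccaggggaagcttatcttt
LNP-Ctrl 3 alpha: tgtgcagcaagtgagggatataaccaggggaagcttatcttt

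To set a scale, combinations of a beta receptor and an alpha chain were compared between units. Among 259 pairs of combinations with the same public beta receptor, 30 (11.6%) had the same alpha V segment, loop and J segment, against 0.00372% of pairs with different beta receptors. The same TRAV and TRAJ segments, with any loop, were met in 48 of the 259 pairs (18.5%), against 0.0772% of the other pairs. By pair of units this share ran from 7.50% between LNP-Ctrl 1 and 3 to 36.8% between LNP-P20-mAb 1 and 2 and LNP-P20-mAb 3, against 0.0720% to 0.0939% for different beta receptors. The receptors of a unit recur in several pairs, so the pairs are not independent.

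**Figure D5:**
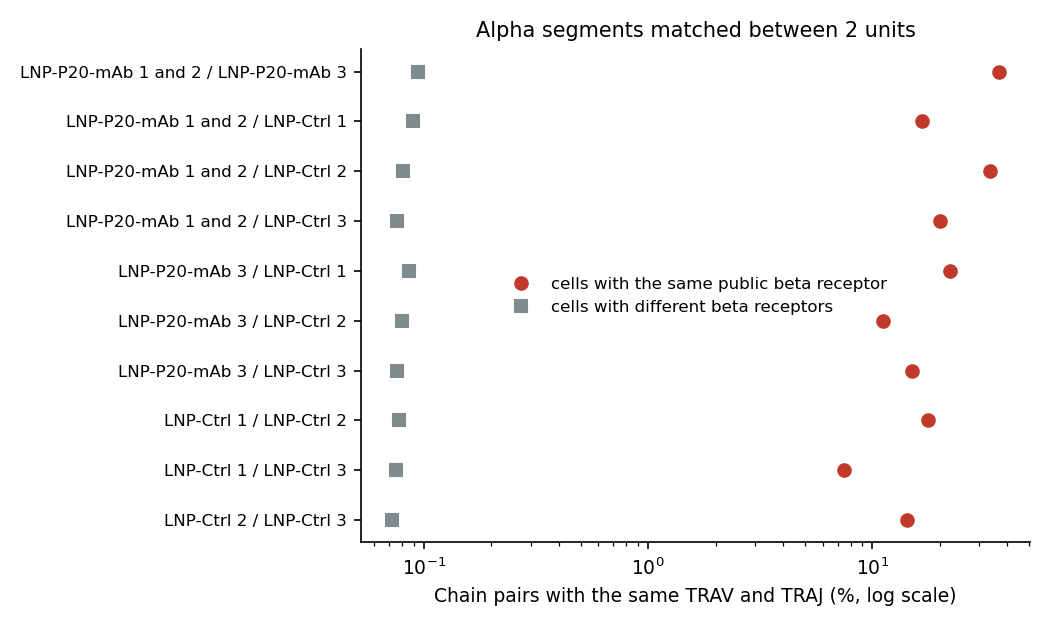
Share of combination pairs with the same TRAV and TRAJ segments, in percent on a log scale, for each of the 10 pairs of library units. Circles are pairs with the same public beta receptor, from 7.50% to 36.8%, and squares pairs with different beta receptors, from 0.0720% to 0.0939%.

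In 5 of the 8 families of public receptors that differ in 1 residue, most combinations used the same TRAV family or the same TRAJ segment. These families, with the same V, J and length, took in 21 public receptors. The TRBV10 and TRBJ2-3 family held 6 receptors and 56 cells and was present in all 5 units. It was paired with a TRAV9 segment in 21 of its 28 receptor and alpha combinations, and with TRAJ27 in 11, where TRAV9 segments made up 9.38% and TRAJ27 2.99% of single-library combinations. The TRBV19 and TRBJ1-1 family, made of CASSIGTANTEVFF, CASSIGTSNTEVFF and the loop that begins CASSMG, held 394 cells in 5 units, with a TRAV6 segment in 8 of 9 combinations and TRAJ9 in 7, against 13.8% and 3.00% of single-library combinations. These counts are a description, since combinations of 1 family share a V and a J segment.

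The TRBV16 and TRBJ2-7 pair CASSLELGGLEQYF and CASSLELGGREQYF used TRAJ7 in 4 of 4 combinations, against 2.10% of single-library combinations, with TRAV9N-3 and TRAV10N for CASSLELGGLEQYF and TRAV7D-2 for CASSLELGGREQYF. The TRBV16 and TRBJ2-4 pair, which includes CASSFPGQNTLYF, used TRAV9 segments in 5 of 5 and TRAJ27 in 4. The remaining 4 families had 2 receptors each. The TRBV12-2+TRBV13-2 and TRBJ2-7 pair used a TRAV16 segment in 3 of 5 combinations. The others used no TRAV family or TRAJ segment in more than 2 of 5.

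Over all alpha segments, TRAV7D-2 and TRAV9-2 were used more by public receptors in the test across segments. Of 121 TRAV and TRAJ segments tested over 352 public and 11590 single-library combinations, 2 (1.65%) were called higher and 0 lower at an adjusted p of 0.05 (edgeR quasi-likelihood test with Benjamini-Hochberg adjustment), and 15 had an unadjusted p under 0.05. TRAV7D-2 was used by 7.95% of public and 2.99% of single-library combinations, a log2 ratio of 1.39 ± 0.29 (SE), higher in 5 of 5 units (edgeR adjusted p = 0.00218). TRAV9-2 was used by 5.97% and 1.72%, a log2 ratio of 1.74 ± 0.42 (SE), higher in 5 of 5 units (edgeR adjusted p = 0.00232). The combinations of a public receptor are counted in each unit that holds it. The units are therefore not independent in this test, which treats them as if they were. Of the 21 public TRAV9-2 combinations, 12 came from the TRBV10 and TRBJ2-3 family. Without that family the TRAV9-2 log2 ratio was 0.66 (edgeR adjusted p = 0.777), in an alternative chosen after seeing the data, and TRAV7D-2, which the family did not use (0 combinations), stayed called at 1.51 (edgeR adjusted p = 0.000486).

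Both calls were lost in several alternatives. Without public receptors that have an alpha loop in common between units, no segment was called, with log2 ratios of 1.24 for TRAV7D-2 and 1.36 for TRAV9-2 (edgeR adjusted p = 0.205 and 0.253). With only receptors of 1 cell in their unit none was called either, at 0.47 for TRAV7D-2 and 1.33 for TRAV9-2 (edgeR adjusted p = 0.842 and 0.734). Under trimmed-mean scaling no segment was called, at 0.92 for TRAV7D-2 and 1.25 for TRAV9-2 (edgeR adjusted p = 0.105 for both). DESeq2 called TRAV9-2 at 1.75 (adjusted p = 0.00125) and did not call TRAV7D-2 at 1.41 (adjusted p = 0.0529). TRAV7D-2 passed no longer without LNP-P20-mAb 2, at 0.99, or without LNP-P20-mAb 3, at 1.08 (edgeR adjusted p = 0.348 and 0.285). TRAV9-2 passed no longer without LNP-Ctrl 1, at 1.64, or without LNP-Ctrl 3, at 1.88 (edgeR adjusted p = 0.195 and 0.0741). Segments such as TRAV7D-2 have close copies under other TRAV names, so the count of 1 copy is uncertain.

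Other properties of the cells differed less. Alpha loops averaged 13.7 ± 0.138 residues in public and 13.7 ± 0.0433 in single-library combinations (SD, n = 5 units, exact permutation p = 0.625, adjusted 0.7). The median number of TRB UMIs per cell was 21.5 ± 6.00 for public and 16.8 ± 2.17 for single-library cells (SD, n = 5 units), higher in 4 units and equal in 1 (exact permutation p = 0.125, adjusted 0.2). The difference was largest in LNP-Ctrl 1, at 30 against 19, where 468 of the 587 public cells carried TRBV20 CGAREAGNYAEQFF. A second alpha chain was present in 10.9% ± 9.66 of public and 14.1% ± 7.32 of single-library cells (SD, n = 5 units, exact permutation p = 0.688, adjusted 0.7). The values by unit were uneven, since public cells had 22.7% in LNP-P20-mAb 1 and 2, where TRBV12-1 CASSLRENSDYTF carries 2 alpha chains in many cells, and 2.38% in LNP-P20-mAb 3, where single-library cells had 25.6%.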

How the data were processed

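TCR chains were assembled and called by the authors, and the deposited files list 1 chain per line with its segments, CDR3 and raw counts of reads and UMIs (counts as the authors deposited them). Cell Ranger 8.0.1 is named in the submitters' processing notes. Genome builds are named there with no use stated, and coordinates are left out. Chains with few UMIs and cells that the authors' calling dropped leave no trace in the files, which lowers the number of shared receptors seen.

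Chains repeated on a barcode were counted once (11 chains), and barcodes with 2 TRB chains (1844) or no TRA chain (1809) were left out. No doublet caller was run. Members were found as defined in the report. The members, lists and tests were chosen with earlier results of these data known. Receptors named are all those of 3 or more units and, of those in 2 units, the 10 with the most cells, the 5 with the most base sequences and those with identical bases of both chains. Alpha segments named are those past the threshold.

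Common V ends and J starts were built from all TRB sequences of a segment, base by base, while at least 20 sequences remained and 60% agreed. They are not germline sequences, and a middle base can still be templated. Differences within units were tested by exact sign-flip permutation over 5 units, and treatments by exact permutation of 2 against 3 units, two-sided. The 8 single-value tests adjusted together include 2 on the public share by treatment, which are not read, since recurrence chose the members and the share depends on how many receptors the units hold. Alpha segments with 30 or more combinations were tested with edgeR 4.0.16 in R 4.3.3, with the unit as a block and the number of combinations as library size. DESeq2 1.42.0 was an alternative, and the alternatives are given in the closing section. On simulated data with 20 of 121 segments changed, the edgeR test found 10.25% of the changed segments at 2-fold and 78.5% at 4-fold. It called 0.0990% and 0.149% of the unchanged segments in those runs, with units drawn independently. The search for shared receptors was also checked on simulated libraries. Other steps used Python 3.11.15, numpy 2.4.6, pandas 2.3.3 and matplotlib 3.10.9.

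The replicate numbers 1 to 3 occur in both treatments. No label ties them to a shared animal, batch or day, so they were not used as a pairing in the tests of the report.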

Additional observations from a re-analysis of the deposited data

Results flagged for a closer look

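Barcodes with a TRB and no TRA chain, which no comparison of the report uses, carried a public receptor in 15.5%, 8.84% and 6.58% of cases in LNP-P20-mAb 1, 2 and 3, above the 6.13%, 2.49% and 0.845% in LNP-Ctrl 1, 2 and 3. The counts were 48 of 310, 16 of 181 and 15 of 228 in LNP-P20-mAb, and 13 of 212, 13 of 523 and 3 of 355 in LNP-Ctrl. These barcodes were flagged because every LNP-P20-mAb value lay above every LNP-Ctrl value, and the difference was not tested. Barcodes with 2 TRB chains, also left out of the main comparisons, overlapped between treatments. They carried a public receptor in 29.3%, 33.6% and 11.1% of cases in LNP-P20-mAb 1, 2 and 3, and in 21.3%, 4.97% and 1.75% in LNP-Ctrl 1, 2 and 3. Such shares also depend on how many receptors the units hold.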

How the results depend on the processing

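The treatment difference was 1.80 percentage points in the public share of receptors. It was 20.7 points in the share of public receptors with 2 or more cells and 2.98 points in the public share of cells. Leaving out 1 library gave 1.18 to 3.17 points for receptors and 13.5 to 28.1 points for public receptors with 2 or more cells. With LNP-P20-mAb 1 and 2 as 2 libraries, the differences were 17.8, 34.9 and 51.4 points. With the replicate number as a block over 6 libraries, they were 2.84, 21.6 (exact sign-flip permutation p = 0.25) and 4.30 points. That p is the smallest that the blocked test allows, and LNP-P20-mAb 1 and 2, which share clones, count separately in it. The difference for cells was reversed without LNP-Ctrl 2 or 3 (leave-one-out range -1.26 to 7.73 points) and, in an alternative chosen after seeing the data, without receptors of identical bases (-2.31 points).

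Matching the amino-acid loop alone gave 345 public receptors, 314 with several base sequences, a length difference of -0.47 and an alpha length difference of -0.026 residues. Matching the bases gave 36 receptors, 805 cells, 0 with several base sequences by construction, 5 with a recurring alpha loop, and differences of -0.47 residues and -2.90 middle bases. With LNP-P20-mAb 1 and 2 as 2 libraries there were 240 receptors, 5665 cells and 132 recurring alpha loops, and public receptors exceeded the others by 33.5 percentage points with 2 or more cells and by 7.59 mean cells (exact sign-flip permutation p = 0.03125 each, over 6 libraries that share clones), while alpha length differed by -0.026 residues. Without receptors of identical bases alpha length differed by -0.017 residues.

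Leaving out 1 library gave 73 to 125 receptors, 1270 to 1728 cells, 59 to 98 with several base sequences and 16 to 25 with a recurring alpha loop, all lowered by construction. It gave -0.0020 to 0.11 alpha residues, -7.65 to 4.29 points for cells with 2 alpha chains, -7.54 to 2.99 points for the D call, -2.34 to -1.37 middle bases, -0.41 to -0.19 CDR3 residues and 3.74 to 8.73 more mean cells per public receptor. Alpha segments called numbered 1 to 2 on leaving out a library, 1 with DESeq2 or without the TRBV10 and TRBJ2-3 family, and 0 with trimmed-mean scaling, with receptors of 1 cell or without recurring alpha loops. The median log2 ratio over segments was -0.30, and -0.75 with trimmed-mean scaling. Counting near-identical TRAV copies under 1 name gave 3 calls (TRAV7-2, TRAV9-2 and TRAV9-4). The causes were not tested. Small libraries limit how many shared receptors can be found.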
